A study of Mus musculus with 16 samples.

Results

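Proteins that enter the secretory pathway fold in the endoplasmic reticulum (ER), and 38 genes of that folding and quality control machinery were followed here in Ba/F3 cells, a mouse pro-B cell line that depends on interleukin-3. The genes were taken by name from a list, by a rule that uses no measured value although earlier results of these data were known, and all 38 were found among the 25650 genes of the count table. They fall into 13 luminal chaperones and their partners, 7 disulfide and proline folding enzymes, 11 genes of ER-associated degradation (ERAD), 3 sensors and transcription factors of the unfolded protein response, and 4 genes of protein translocation. The RNA came from 16 libraries in 4 groups of 4. ChimP3V3 cells, labelled ChimP3V3:gp130Box1/2, received interleukin-6 (IL-6) at 100 ng/ml or stayed in medium, and gp130:IL-6R cells, labelled wt, likewise received IL-6 at 100 ng/ml or stayed in medium. The gp130:IL-6R cells carry the signal-transducing receptor gp130 with the IL-6 receptor, and the series title describes the other line's receptor as a synthetic IL-6 receptor whose activity is mainly phosphorylation of STAT3. The time under IL-6, the presence of interleukin-3 and whether a line is 1 clone or a pool are not given in the sources used here, and the source label of the ChimP3V3 samples names Ba/F3 cells alone.

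The unfolded protein response is a set of signalling routes from the ER to the nucleus. Its sensors IRE1 (gene Ern1), ATF6 and PERK react to unfolded proteins in the lumen. IRE1 splices the mRNA of Xbp1 into a form that encodes an active transcription factor, and ATF6 is cut in the Golgi to release another. Together they raise the genes of chaperones, which fold proteins in the lumen, and of ERAD, which carries proteins that fail to fold back to the cytosol for the proteasome. In the B lineage the XBP1 branch is best known from plasma cells, whose ER expands for antibody secretion. The counts here are of 3' ends of mRNA, so they do not separate spliced from unspliced Xbp1.

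Many of these genes carry a shared promoter sequence, which is shown because it is a route by which ATF6 and XBP1 are known to reach them. The ER stress response element (ERSE) reads CCAAT, 9 bases of any kind and CCACG, and ERSE-II reads ATTGG, 1 base of any kind and CCACG. Both strands of RefSeq promoter windows (build GRCm38.p6, 250 bases before to 50 bases after each gene's start) were searched for exact matches. Of the 38 genes 31 had a window. ERSE was found in 9 of these 31 genes, against 0.137% of the 27025 genes with a window, and ERSE-II in 2 of 31, against 0.0444%. Another element searched on both strands, TGACGTGG, the core of the unfolded protein response element, was found in 0 of the 31 and in 0.714% of all genes. By role, ERSE was found in 6 of 9 luminal chaperones with a window, in 1 of 7 folding enzymes, in 2 of 10 ERAD genes and in none of the 2 sensors or the 3 translocation genes with one. Both elements are already known from promoters of genes of this response, some of them listed here. Their higher share among the listed genes is therefore background and no result of these data. An exact match is a description of letters and does not show binding.

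The ERSE matches, each read in the direction of the element, with its fixed letters in capitals, were as follows.
Calr: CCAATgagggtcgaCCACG
Canx: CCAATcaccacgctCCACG
Creld2: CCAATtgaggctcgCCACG
Derl3: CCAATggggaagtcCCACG
Dnajc3: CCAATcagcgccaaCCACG
Hsp90b1: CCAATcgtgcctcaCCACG
Hsp90b1: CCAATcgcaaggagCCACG
Hspa5: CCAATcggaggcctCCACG
Pdia6: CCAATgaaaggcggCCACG
Syvn1: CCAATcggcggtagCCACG
The ERSE-II matches were as follows.
Dnajb11: ATTGGcCCACG
Herpud1: ATTGGgCCACG
In Hspa5 the element ended 47 bases before the start and lay at chr2:34772025-34772043. Hsp90b1 held it on both strands, at chr10:86705638-86705656 on its own strand and at chr10:86705533-86705551 on the other. The ERSE-II match of Herpud1 lay at chr8:94386377-94386387, and that of Dnajb11 just downstream of the start, at chr16:22857852-22857862. No ERSE match overlapped an ERSE-II match.

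The whole windows of 3 of these genes are printed because these genes moved differently: Herpud1 and Hspa5 rose under IL-6 in gp130:IL-6R cells while Hsp90b1 fell. Capitals mark ERSE in Hspa5 (chr2:34771840-34772139, plus strand) and Hsp90b1 (chr10:86705395-86705694, minus strand, both matches) and ERSE-II in Herpud1 (chr8:94386179-94386478, plus strand).
Hspa5: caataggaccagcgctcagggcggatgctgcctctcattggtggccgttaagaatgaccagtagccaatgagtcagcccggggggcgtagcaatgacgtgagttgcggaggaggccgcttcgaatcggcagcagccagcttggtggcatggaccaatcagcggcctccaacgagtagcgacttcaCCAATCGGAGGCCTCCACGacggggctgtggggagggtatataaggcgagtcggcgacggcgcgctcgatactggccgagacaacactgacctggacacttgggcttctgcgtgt
Hsp90b1: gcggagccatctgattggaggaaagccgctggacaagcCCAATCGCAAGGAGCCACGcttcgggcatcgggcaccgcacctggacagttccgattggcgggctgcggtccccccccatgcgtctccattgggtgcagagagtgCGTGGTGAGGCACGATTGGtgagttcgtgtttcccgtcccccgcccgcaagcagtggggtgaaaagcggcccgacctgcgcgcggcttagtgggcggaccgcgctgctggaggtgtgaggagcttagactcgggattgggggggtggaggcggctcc
Herpud1: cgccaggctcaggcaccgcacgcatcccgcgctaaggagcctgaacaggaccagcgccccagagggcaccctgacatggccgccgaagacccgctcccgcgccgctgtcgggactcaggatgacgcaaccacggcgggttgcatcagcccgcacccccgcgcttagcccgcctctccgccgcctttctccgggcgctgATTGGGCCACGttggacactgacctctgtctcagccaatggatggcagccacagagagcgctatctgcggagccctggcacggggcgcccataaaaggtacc

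Library totals ranged from 1275112 to 1650348 counts, and 3 counts in 1 library, the limit that a count of 0 allows, came to 1.80 to 2.40 CPM (counts scaled to a common library size by the TMM method). Of the 38 genes, 37 passed the filter on low counts. Derl3, an ERAD gene of secretory cells, had 0 counts in all 16 libraries and was not tested. The other 37 had a count in every library. Together the 38 genes took 0.822% ± 0.00541 of the counts in ChimP3V3 cells under IL-6, 0.848% ± 0.00784 in ChimP3V3 cells in medium, 1.14% ± 0.0104 in gp130:IL-6R cells under IL-6 and 1.03% ± 0.0136 in gp130:IL-6R cells in medium (SD, n = 4). Of the 11 pro-B and interleukin-3 receptor markers, Igll1, Pax5 and Ebf1 were near 0, and the receptor genes Csf2rb and Csf2rb2 gave most of the sum. That sum was 867 to 964 CPM in ChimP3V3 cells under IL-6, 896 to 938 CPM in ChimP3V3 cells in medium, 703 to 740 CPM in gp130:IL-6R cells under IL-6 and 584 to 602 CPM in gp130:IL-6R cells in medium. The 7 plasma cell markers other than Xbp1 summed to at most 4.32 CPM in any library, and Ighm had 0 counts. The 10 mast cell and granulocyte markers summed to 575 to 630 CPM in ChimP3V3 cells under IL-6, 435 to 467 CPM in ChimP3V3 cells in medium, 1019 to 1091 CPM in gp130:IL-6R cells under IL-6 and 870 to 956 CPM in gp130:IL-6R cells in medium, and Mcpt8 had 0 counts. Gata2 and Prtn3 gave most of that sum. Single markers differed between the lines in both directions, which the sums do not show. In medium 2 of 5 tested mast cell and granulocyte markers were higher in ChimP3V3 cells and 3 lower (log2 -5.47 to 7.59). Of 6 tested pro-B and receptor markers 3 were higher and 2 lower (log2 -4.28 to 0.87), against 31.7% and 33.5% of all genes. The part of these markers in the results was not tested. The labels do not say whether the 4 libraries of a group came from separate cultures. Chi-square per degree of freedom between them was 0.958 to 1.17, close to counting error alone, so the p-values measure a spread that may be technical. In bulk RNA, a change in the share of cells and a change in RNA per cell cannot be told apart.

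**Figure D1:**
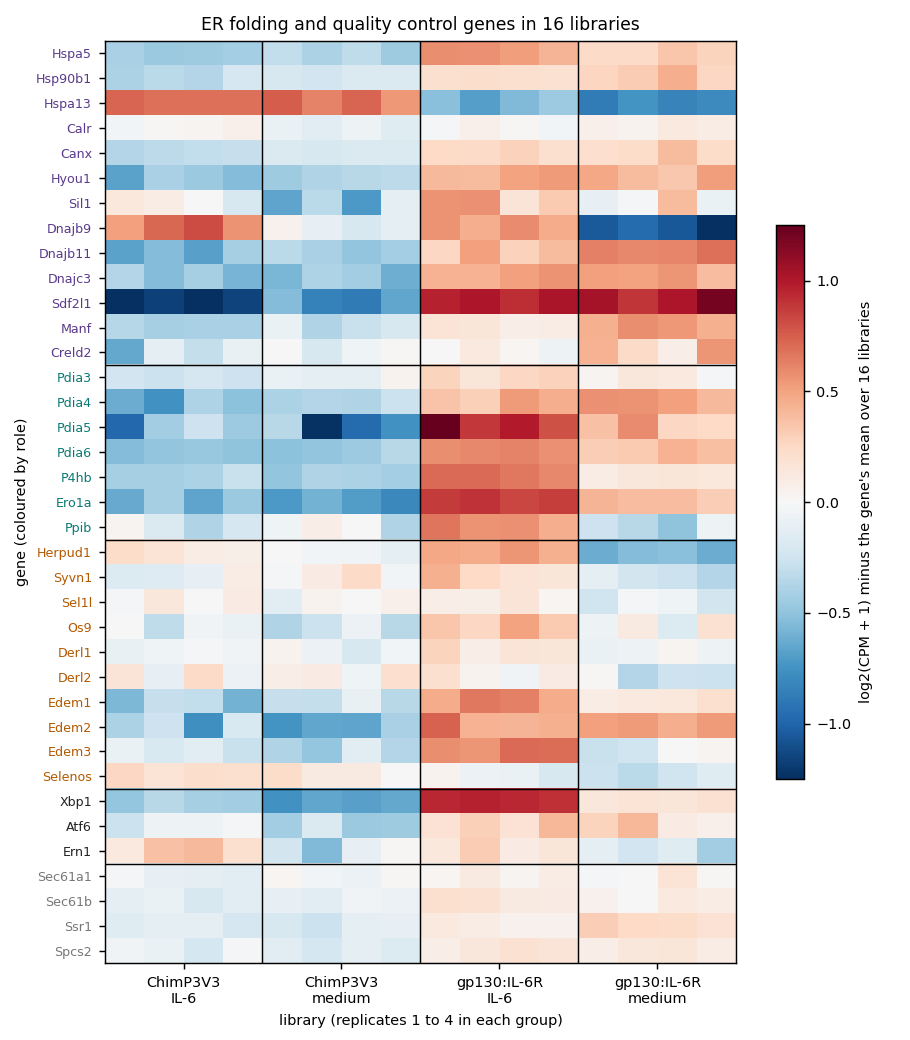
Heat map of the 37 tested genes (rows, coloured by role) in 16 libraries (columns, 4 per group), as log2(CPM + 1) minus the gene's mean over all libraries. Most luminal chaperones and folding enzymes are blue in both ChimP3V3 groups and red in both gp130:IL-6R groups, Hspa13 is the reverse, and Dnajb9 and Herpud1 are lowest in gp130:IL-6R cells in medium.

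The first comparison asked how IL-6 changed these genes in gp130:IL-6R cells. The ER genes moved in both directions. Of the listed genes, 9 of 10 tested in ERAD and 6 of 7 folding enzymes rose, while 4 of 13 luminal chaperones rose and 4 fell. Herpud1, Xbp1 and the co-chaperone Dnajb9 had the smallest p-values. Of the 37 tested genes 21 rose and 5 fell at an adjusted p under 0.05 in edgeR, against 25.7% of all 9540 tested genes higher and 24.3% lower (50% in either direction). Their median log2 change was 0.22, against 0.01 over all genes. The 4 libraries under IL-6 lay entirely above those in medium in 18 of the 37 and entirely below in 4, against 22.7% and 21.1% of all genes (43.8% in either direction).

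Dnajb9 (ERdj4), a luminal co-chaperone of BiP that also helps degrade misfolded proteins, changed most. It stands on chromosome 12 from 44252342 to 44257109 (GRCm39, minus strand). Its levels were 172, 160, 177 and 162 CPM in gp130:IL-6R cells under IL-6, against 55.8, 59.3, 55.4 and 48.4 CPM in medium. Every library under IL-6 lay far above every library in medium. The rise was 3.05-fold (log2 1.61, SE 0.0818, adjusted p = 5.57e-20). Hspa5 encodes BiP, the main Hsp70 chaperone of the lumen and the brake on all 3 sensors (chromosome 2, 34661982 to 34667559, plus strand). It had 1297, 1295, 1246 and 1168 CPM under IL-6, against 1023, 1025, 1108 and 1055 CPM in medium. These groups did not overlap, but the rise was only 1.19-fold (log2 0.25, SE 0.0334, adjusted p = 3.98e-08). Hspa13, an Hsp70 relative of the ER, rose 1.20-fold (adjusted p = 0.000178) and Sil1, a nucleotide exchange factor for BiP, 1.29-fold (adjusted p = 0.0198).

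The chaperones that fell did so by small amounts. Manf, a small secreted protein of the stressed ER that binds BiP, had 176, 173, 166 and 167 CPM in gp130:IL-6R cells under IL-6, against 212, 234, 228 and 213 CPM in medium. The groups did not overlap (log2 -0.38, SE 0.0539, adjusted p = 1.28e-07). The Manf gene overlaps Rbm15b on the same strand and Dcaf1 on the other, so its counts are uncertain. Dnajb11 (ERdj3), another BiP co-chaperone, had 175, 209, 179 and 193 CPM under IL-6, against 226, 222, 224 and 237 CPM in medium. All 4 libraries under IL-6 were lower (log2 -0.27, SE 0.0542, adjusted p = 5.9e-05). Hsp90b1 encodes GRP94, the Hsp90 chaperone of the lumen. It had 805, 817, 801 and 796 CPM under IL-6 against 843, 874, 956 and 837 CPM in medium, again without overlap (log2 -0.12, SE 0.0359, adjusted p = 0.00402). Creld2, a gene induced by ER stress, had 42.1, 45.8, 42.8 and 40.3 CPM under IL-6 and 57.1, 49.7, 44.8 and 62.2 CPM in medium. Its groups overlapped, and its call (log2 -0.33, adjusted p = 0.0164) was lost with DESeq2 (adjusted p = 0.0642), without medium replicate 4 (0.105) and without IL-6 replicate 4 (0.0563). The lectin chaperones Calr and Canx, the BiP exchange factor Hyou1, and the co-chaperones Dnajc3 and Sdf2l1 did not pass the test. The 95% interval of Dnajc3 ran from -0.11 to 0.12 and that of Hyou1 from -0.10 to 0.15 on the log2 scale. Of the 13 genes in this role, 4 thus rose, 4 fell and 5 did not pass, with a median log2 change of -0.02.

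The next role holds 6 genes of disulfide bond formation and the proline isomerase gene Ppib. Of these 7, 6 rose, Pdia4 did not pass (log2 -0.10, adjusted p = 0.304), and the median log2 change was 0.50. P4hb encodes protein disulfide isomerase (chromosome 11, 120451124 to 120464079, minus strand). It had 669, 670, 646 and 622 CPM in gp130:IL-6R cells under IL-6, against 438, 453, 455 and 449 CPM in medium. The levels were 1.45-fold higher under IL-6, with no overlap (log2 0.54, SE 0.0354, adjusted p = 2.17e-16). Ero1a, the oxidase that recharges protein disulfide isomerase, had 442, 451, 430 and 439 CPM under IL-6, against 322, 314, 313 and 298 CPM in medium. It was 1.41-fold higher (log2 0.50, SE 0.041, adjusted p = 1.72e-13). Ppib, which encodes the proline isomerase cyclophilin B, had 201, 185, 187 and 172 CPM under IL-6, against 105, 98.9, 88.1 and 120 CPM in medium. Its rise was 1.80-fold (log2 0.85, SE 0.0798, adjusted p = 6.65e-12). The genes Ppib, Pdia3, Pdia6, Syvn1, Derl2 and Spcs2 each overlap another gene on the other strand, so their counts are less certain. The overlapping gene had 1368 counts over all libraries for Syvn1 and 1816 for Derl2. For Ppib, Pdia3, Pdia6 and Spcs2 it had 135, 36, 3 and 5. The isomerase genes Pdia5, Pdia6 and Pdia3 rose 1.55-fold, 1.18-fold and 1.13-fold.

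Among the 10 listed ERAD genes tested, 9 rose and 0 fell, against 25.7% of all genes higher, and the median was 0.32 on the log2 scale. Herpud1 encodes a membrane protein that helps to organise the ERAD ubiquitin ligase complex (chromosome 8, 95113066 to 95122005, plus strand). It had 265, 260, 277 and 256 CPM in gp130:IL-6R cells under IL-6, against 122, 129, 131 and 122 CPM in medium. The lowest library under IL-6 stood well above the highest in medium. Its rise was 2.10-fold (log2 1.07, SE 0.0536, adjusted p = 3.74e-20). Edem3, a mannose-trimming enzyme that marks glycoproteins for disposal, rose 1.71-fold (adjusted p = 1.64e-09), and its relative Edem1 1.34-fold (adjusted p = 1.24e-06). Syvn1, which encodes the ubiquitin ligase HRD1, rose 1.42-fold and its partner Sel1l 1.17-fold. The lectin gene Os9 rose 1.26-fold, the channel genes Derl1 and Derl2 1.16-fold and 1.23-fold, and the adaptor gene Selenos 1.13-fold. Edem2 did not pass the test, with a 95% interval from -0.19 to 0.21 on the log2 scale.

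Of the sensors and factors, Xbp1 (chromosome 11, 5470659 to 5475893, plus strand) had 423, 430, 424 and 414 CPM in gp130:IL-6R cells under IL-6, against 244, 247, 244 and 252 CPM in medium. The libraries of a group differed little, and the rise was 1.71-fold (log2 0.77, SE 0.0392, adjusted p = 5.19e-20). Ern1, the sensor that splices Xbp1 (chromosome 11, 106285476 to 106378678, minus strand), had 52.9, 60.1, 51.8 and 53.5 CPM under IL-6, against 44.4, 40.7, 43.3 and 35.4 CPM in medium. It was 1.33-fold higher without overlap (log2 0.41, SE 0.115, adjusted p = 0.00273). Atf6 (chromosome 1, 170532243 to 170695340, minus strand) had 80.7, 88.0, 80.7 and 95.6 CPM under IL-6 and 86.9, 95.3, 76.7 and 74.6 CPM in medium. The groups overlapped and the test was not passed (log2 0.04, SE 0.0855, adjusted p = 0.706). Translocation genes changed little. Ssr1, a subunit of the translocon-associated complex, had 498, 490, 477 and 476 CPM under IL-6, against 566, 544, 536 and 520 CPM in medium, a fall of 0.16 on the log2 scale with no overlap (log2 -0.16, SE 0.0374, adjusted p = 0.000432). The channel genes Sec61a1 and Sec61b and the signal peptidase gene Spcs2 did not pass.

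**Figure D2:**
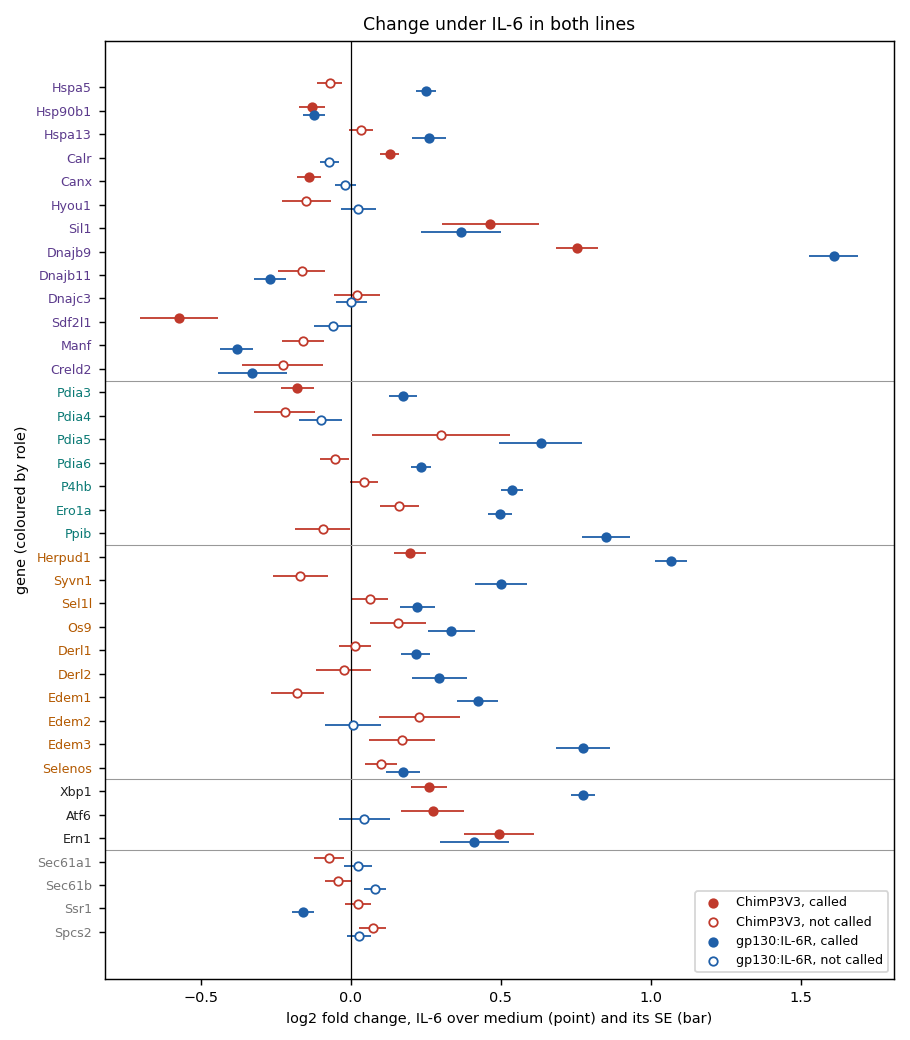
Fitted log2 fold changes under IL-6 over medium (x axis, with SE bars) for 37 genes grouped by role (y axis), ChimP3V3 cells in red above gp130:IL-6R cells in blue, filled where the adjusted p was under 0.05. In gp130:IL-6R cells 9 of 10 ERAD genes and 6 of 7 folding enzymes lie to the right of 0 as filled points, and luminal chaperones lie on both sides.

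In ChimP3V3 cells the same comparison gave fewer calls among these genes. Dnajb9 again rose most. All 3 sensors and factors were called higher, but the call of Atf6 (adjusted p = 0.0498 in edgeR) did not hold in 25 of 28 other settings. No ERAD gene other than Herpud1 passed, and DESeq2 did not call Herpud1. Of the 37 genes 7 rose and 4 fell, against 16.2% higher and 11.4% lower over all genes (27.5% in either direction), shares close to this background. The median log2 change was 0.02, against 0.03 over all genes. Libraries of the groups did not overlap in 5 genes higher under IL-6 and in 3 lower, against 15.9% and 11.5% of all genes (27.4% in either direction). Only 4 rose without IL-6 replicate 1, 2 or 3 of this line, and 4 rose with DESeq2.

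Dnajb9 had 167, 193, 206 and 173 CPM in ChimP3V3 cells under IL-6, against 121, 109, 102 and 107 CPM in medium. The groups stood apart, with a rise of 1.69-fold (log2 0.75, SE 0.07, adjusted p = 2.24e-11). Sdf2l1, a luminal protein that works with ERdj3 and BiP, had 28.8, 34.1, 28.6 and 34.4 CPM under IL-6, against 53.3, 42.8, 41.9 and 49.4 CPM in medium. It was the largest fall among these genes, 1.49-fold (log2 -0.57, SE 0.13, adjusted p = 0.000645). Hspa5 had 654, 632, 637 and 649 CPM under IL-6 and 703, 660, 699 and 640 CPM in medium, with overlap (log2 -0.07, SE 0.0417, adjusted p = 0.223). It passed as lower when only this line was fitted (adjusted p = 0.0215) and without IL-6 replicate 4 of gp130:IL-6R cells (0.0487).

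Sil1 rose 1.38-fold in ChimP3V3 cells (adjusted p = 0.0252, groups overlapping). The other called changes of chaperones were at most 1.10-fold. Calr, which encodes calreticulin, had 1023, 1058, 1070 and 1090 CPM under IL-6, against 989, 948, 998 and 941 CPM in medium (log2 0.13, SE 0.033, adjusted p = 0.00233). This call was lost without IL-6 replicate 3 (adjusted p = 0.0563) or 4 (0.0783). Canx, which encodes the membrane lectin chaperone calnexin, had 599, 616, 623 and 635 CPM under IL-6, against 684, 674, 684 and 681 CPM in medium (log2 -0.14, SE 0.0398, adjusted p = 0.00626). Both groups of libraries stood apart in these 2 genes, in opposite directions. Hsp90b1 had 530, 554, 543 and 602 CPM under IL-6 and 607, 593, 618 and 617 CPM in medium. Its groups overlapped, and its call (log2 -0.13, adjusted p = 0.0189) was lost without medium replicate 3 (0.0517). These 3 genes and Hspa5 had mean counts over 800. Summed counts of the 227 genes above that level rose with the library total by a log-log slope of 0.645 within groups, where proportional growth gives 1, and mean totals were 1339405 in ChimP3V3 cells under IL-6 and 1449201 in medium. The part of this in the small changes was not tested.

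Among the folding enzymes of ChimP3V3 cells, Pdia3 alone passed, as lower. This partner of calreticulin and calnexin had 212, 208, 216 and 209 CPM under IL-6, against 237, 232, 231 and 258 CPM in medium (log2 -0.18, SE 0.0538, adjusted p = 0.0102), a call lost without medium replicate 4 (0.0719). It was called in opposite directions in the 2 lines, as were 2.29% of all genes. The 95% interval of P4hb ran from -0.06 to 0.15 and that of Ppib from -0.29 to 0.10 on the log2 scale. Of the 10 ERAD genes tested, Herpud1 had 221, 212, 201 and 199 CPM under IL-6, against 188, 184, 183 and 173 CPM in medium. The groups did not overlap (log2 0.20, SE 0.0539, adjusted p = 0.00757), but DESeq2 did not call it (adjusted p = 0.0543), nor did edgeR when IL-6 replicate 1 (0.138) or 2 (0.0623) was left out. The other 9 did not pass, and their log2 changes lay between -0.18 and 0.23.

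Xbp1 had 157, 173, 165 and 163 CPM in ChimP3V3 cells under IL-6, against 130, 140, 137 and 141 CPM in medium. It was 1.20-fold higher without overlap (log2 0.26, SE 0.059, adjusted p = 0.00161). Ern1 had 52.6, 62.2, 64.1 and 55.3 CPM under IL-6, against 40.8, 32.6, 44.6 and 48.7 CPM in medium, a rise of 1.41-fold (log2 0.49, SE 0.117, adjusted p = 0.00105). Atf6 had 59.1, 68.1, 68.0 and 70.5 CPM under IL-6 and 52.6, 62.6, 51.5 and 52.1 CPM in medium, and its groups overlapped. Its adjusted p of 0.0498 (log2 0.27, SE 0.105) stood at the threshold and did not hold in 25 of 28 other settings, among them the omission of any single library other than medium replicate 2 of this line (adjusted p from 0.0502 to 0.19). The 4 translocation genes did not pass, with log2 changes between -0.07 and 0.07.

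**Figure D3:**
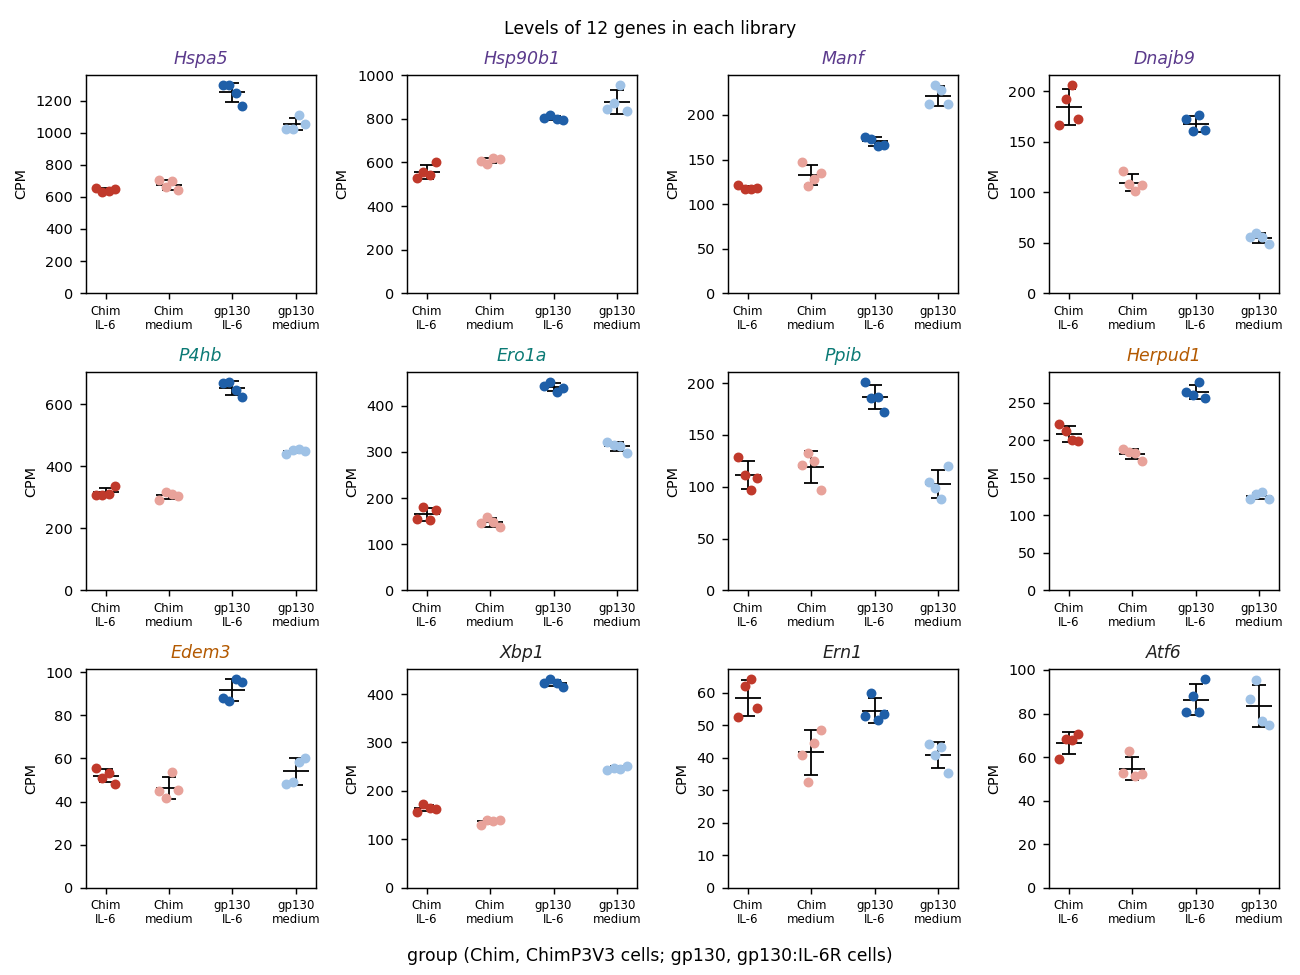
CPM of 12 genes in each library (points), with the group mean and SD (bars, n = 4), in ChimP3V3 and gp130:IL-6R cells under IL-6 and in medium. Under IL-6, Herpud1 and Xbp1 are far higher than in medium in gp130:IL-6R cells and slightly higher in ChimP3V3 cells, Dnajb9 is higher in both lines, and the 4 libraries under IL-6 lie above those in medium for Hspa5, P4hb, Ero1a, Ppib and Edem3 in gp130:IL-6R cells.

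The third comparison tested the difference between these responses, ChimP3V3 minus gp130:IL-6R. Each line carried its own receptor. The receptor and other traits of the line therefore cannot be told apart, here or in the comparisons of the lines below. A negative value means a smaller rise, a larger fall or a fall in place of a rise in ChimP3V3 cells. Of 37 genes 15 were called with a negative difference and 2 with a positive one. The shares called over all genes were 11.5% lower and 12.4% higher (23.9% in either direction). The median difference was -0.17 on the log2 scale, against 0.02 over all genes. By role, those called negative were 5 of 10 ERAD genes, 5 of 7 folding enzymes, 4 of 13 luminal chaperones and Xbp1. The log2 response of Herpud1 was smaller in ChimP3V3 cells (-0.87, SE 0.0767, adjusted p = 7.16e-12). Ppib differed by -0.94 (SE 0.121, adjusted p = 8.25e-08), P4hb by -0.49 (SE 0.0588, adjusted p = 1.58e-08) and Dnajb9 by -0.86 (SE 0.111, adjusted p = 1.04e-07). Xbp1 (log2 -0.51, adjusted p = 3.91e-07) and Hspa5 (log2 -0.32, adjusted p = 1.18e-05) also rose less or did not pass there. Among the 15, Sdf2l1 fell in ChimP3V3 cells and did not pass in gp130:IL-6R cells (log2 -0.57 against -0.06), and Pdia3 fell in ChimP3V3 cells and rose in gp130:IL-6R cells (log2 -0.18 against 0.18).

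Calr and Ssr1 were the genes called with a positive difference. Calr rose in ChimP3V3 cells and did not pass in gp130:IL-6R cells, while Ssr1 did not pass in ChimP3V3 cells and fell in gp130:IL-6R cells. Calr differed by 0.20 (SE 0.0456, adjusted p = 0.000845) and Ssr1 by 0.18 (SE 0.0568, adjusted p = 0.0146). Ssr1 missed the threshold in DESeq2 (adjusted p = 0.0676), with no filter on low counts (0.0989), with a CPM of at least 5 (0.0651) and after thinning the libraries to equal totals (0.137). The same happened on leaving out gp130:IL-6R IL-6 replicate 1 (adjusted p = 0.0542) or 4 (0.106), ChimP3V3 medium replicate 2 (0.055) or ChimP3V3 IL-6 replicate 1 (0.0894), 2 (0.112) or 3 (0.118). Calr kept its call with a positive difference in each of these settings. The falls of Hsp90b1 had nearly the same size in both lines, with a 95% interval of the difference from -0.13 to 0.12 on the log2 scale. For Ern1 the interval ran from -0.28 to 0.44 and for Atf6 from -0.07 to 0.52, so moderate differences could have been missed.

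The lines were then compared in medium. ChimP3V3 cells held less RNA of nearly every luminal folding gene than gp130:IL-6R cells. Of 37 genes 25 were lower and 7 higher in ChimP3V3 cells, against 33.5% lower and 31.7% higher over all genes (65.1% in either direction). Their median log2 difference was -0.41, and that of all genes was close to 0. The lines did not overlap in 23 genes lower and 5 higher in ChimP3V3 cells, against 29.7% and 27.7% of all genes (57.4% in either direction). Of 13 luminal chaperones 11 were lower and 2 higher, and of 7 folding enzymes 6 were lower and Ppib higher. ERAD genes were split, with 4 higher (Herpud1, Syvn1, Derl2 and Selenos), 3 lower (Edem1, Edem2 and Os9) and 3 that did not pass.

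Sdf2l1 had 53.3, 42.8, 41.9 and 49.4 CPM in ChimP3V3 cells in medium, against 162, 146, 158 and 180 CPM in gp130:IL-6R cells in medium, and was 3.44-fold lower (log2 -1.78, SE 0.0833, adjusted p = 5.69e-22). Ero1a had 145, 159, 148 and 137 CPM in ChimP3V3 cells, against 322, 314, 313 and 298 CPM in gp130:IL-6R cells, and was 2.11-fold lower (log2 -1.08, SE 0.0534, adjusted p = 3.71e-21). Pdia6 had 287, 289, 298 and 322 CPM in ChimP3V3 cells, against 507, 511, 552 and 530 CPM in gp130:IL-6R cells, and was 1.75-fold lower (log2 -0.81, SE 0.0408, adjusted p = 7.21e-21). None of these 3 genes had overlapping groups. Hspa5 was 1.56-fold lower (adjusted p = 8.85e-19), Dnajb11 2.07-fold lower, Dnajc3 1.99-fold lower, Xbp1 1.80-fold lower (adjusted p = 3.58e-18) and Atf6 1.53-fold lower (adjusted p = 4.7e-07).

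Hspa13 went the other way, with 694, 630, 677 and 597 CPM in ChimP3V3 cells in medium, against 223, 243, 229 and 236 CPM in gp130:IL-6R cells in medium. It was 2.78-fold higher (log2 1.48, SE 0.0472, adjusted p = 9.4e-28), the widest gap above 0 among these genes. Dnajb9 was 1.99-fold higher (log2 1.00, SE 0.0908, adjusted p = 1.02e-12) and Herpud1 1.44-fold higher (log2 0.53, SE 0.0587, adjusted p = 2.12e-10), with no overlap in either gene. Ern1 did not pass (log2 0.02, adjusted p = 0.895, 95% interval -0.25 to 0.29).

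Under IL-6, 30 of 37 genes were lower in ChimP3V3 cells and 2, Hspa13 and Selenos, were higher, against 31.6% lower and 31.2% higher over all genes (62.8% in either direction). The lines did not overlap in those 30 genes nor in those 2, against 27.7% and 27.2% of all genes (54.9% in either direction). Each comparison of the lines shares its libraries with the responses above, so these values are set side by side only. Xbp1 was 2.57-fold lower in ChimP3V3 cells (log2 -1.36, SE 0.0452, adjusted p = 2.7e-27), Hspa5 1.94-fold lower (log2 -0.96, SE 0.0376, adjusted p = 9.58e-25) and Atf6 1.30-fold lower (log2 -0.38, adjusted p = 0.00053). Herpud1 and Syvn1, higher in ChimP3V3 cells in medium, were lower there under IL-6 (Herpud1 log2 -0.34, SE 0.0494, adjusted p = 9.59e-08). Ppib was also higher in medium and lower under IL-6 (log2 -0.74, adjusted p = 2.04e-10). Dnajb9, at 167 to 206 CPM in ChimP3V3 cells and 160 to 177 CPM in gp130:IL-6R cells, did not pass (log2 0.14, adjusted p = 0.0534). It passed with upper-quartile factors (adjusted p = 0.0278), without IL-6 replicate 3 of gp130:IL-6R cells (0.0371) and without medium replicate 1 (0.0478) or IL-6 replicate 1 (0.0438) of ChimP3V3 cells. Ern1 did not pass (log2 0.10, adjusted p = 0.441).

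**Figure D4:**
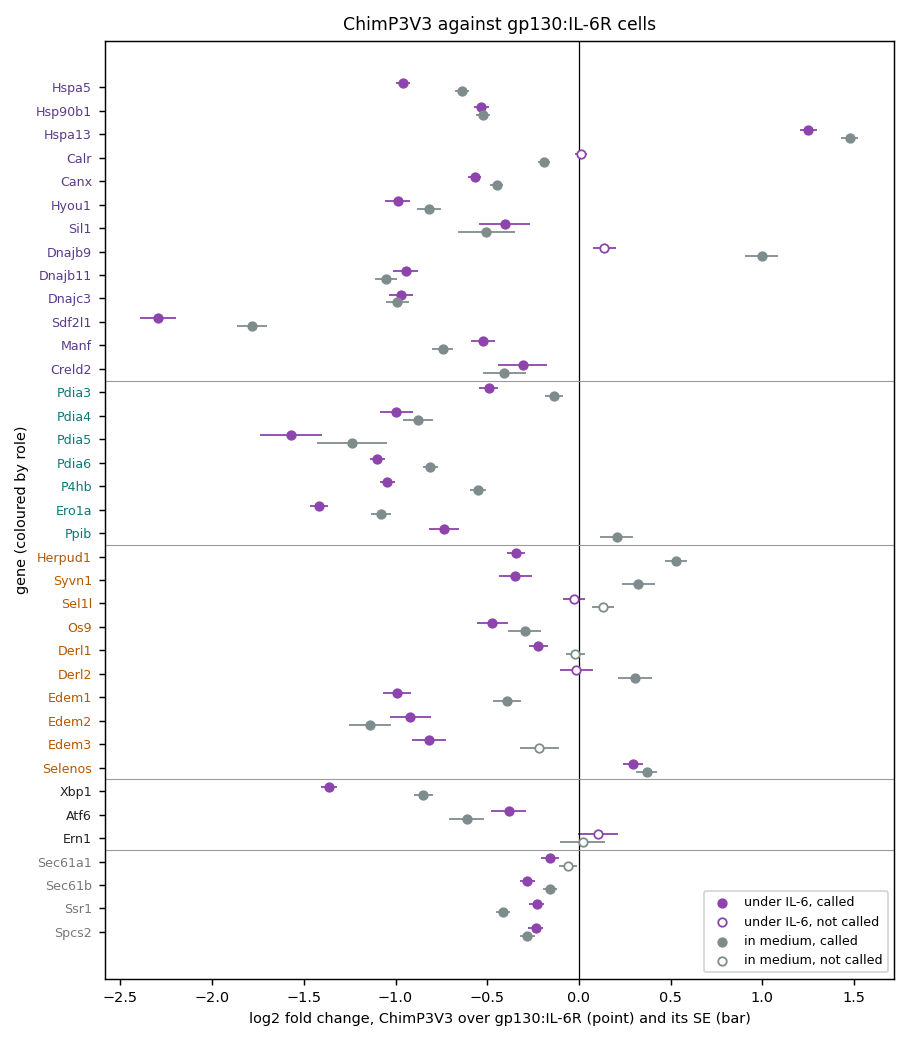
Fitted log2 fold changes of ChimP3V3 over gp130:IL-6R cells (x axis, with SE bars) for 37 genes grouped by role (y axis), under IL-6 in purple above medium in grey, filled where the adjusted p was under 0.05. Most points lie left of 0, Hspa13 lies far to the right in both conditions, and Herpud1, Syvn1 and Ppib lie right of 0 in medium and left of 0 under IL-6.

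Luminal folding genes were set against ERAD genes as 2 sums per library, without a test. The 20 luminal genes (13 chaperones and 7 enzymes) summed to 7860, 7875, 7818 and 7628 CPM in gp130:IL-6R cells under IL-6, against 6977, 7047, 7400 and 7065 CPM in medium. The 11 ERAD genes summed to 1626, 1536, 1597 and 1511 CPM under IL-6, against 1168, 1190, 1206 and 1205 CPM in medium. Both sums were higher under IL-6 in every library, and the ERAD sum by more in proportion to its level. Herpud1 was a large part of the ERAD rise, averaging 265 CPM under IL-6 and 126 CPM in medium. A further 25 ERAD factors outside these sums, counted below, had a median log2 change of 0.02. The ratio of the luminal to the ERAD sum was 4.98 ± 0.136 under IL-6, against 5.97 ± 0.116 in medium (SD, n = 4).

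In ChimP3V3 cells the luminal sum was 5294, 5392, 5390 and 5507 CPM under IL-6 and 5524, 5357, 5502 and 5339 CPM in medium, with overlap. The ERAD sum was 1321, 1303, 1317 and 1302 CPM under IL-6, against 1268, 1256, 1267 and 1237 CPM in medium, with none. The ratio was 4.12 ± 0.0931 under IL-6 and 4.32 ± 0.0402 in medium (SD, n = 4). The range of the ratio was 4.01 to 4.23 under IL-6 and 4.27 to 4.36 in medium, a narrow gap. The median log2 change of luminal genes minus that of ERAD genes was -0.16 in ChimP3V3 cells and -0.21 in gp130:IL-6R cells. Within the luminal genes of gp130:IL-6R cells the enzymes had a median log2 change of 0.50 and the chaperones one of -0.02, against 0.32 for ERAD genes.

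**Figure D5:**
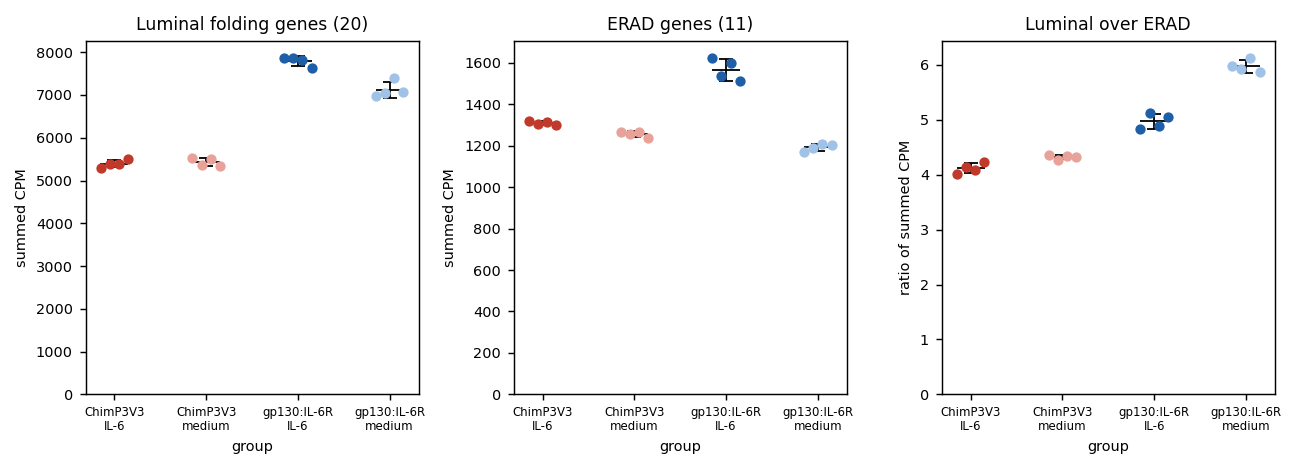
Summed CPM of 20 luminal folding genes, summed CPM of 11 ERAD genes and their ratio in each library (points), with the group mean and SD (bars, n = 4). The ratio is 4.83 to 5.13 in gp130:IL-6R cells under IL-6 and 5.87 to 6.13 in medium, and lower in both ChimP3V3 groups.

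Genes with ERSE in the promoter window did not share a direction under IL-6. Of the 8 tested in gp130:IL-6R cells, Hspa5, Pdia6 and Syvn1 rose, Hsp90b1 and Creld2 fell, and Calr, Canx and Dnajc3 did not pass, against 25.7% of all genes higher and 24.3% lower. In ChimP3V3 cells Calr rose, Canx and Hsp90b1 fell, and 5 did not pass, against 16.2% higher and 11.4% lower. Between the lines in medium, 7 of the 8 were lower in ChimP3V3 cells and Syvn1 was higher, against 33.5% of all genes lower and 31.7% higher. Most listed genes were lower there too, 25 of 37 in all and 17 of 20 luminal folding genes. Under IL-6, 7 of the 8 were lower in ChimP3V3 cells and Calr did not pass, against 31.6% of all genes lower and 30 of the 37 listed. The pair with ERSE-II moved apart in gp130:IL-6R cells, where Herpud1 rose and Dnajb11 fell.

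Other genes of the same machinery, from lists taken from general knowledge, were counted in the same way. In gp130:IL-6R cells, where 25.7% of all genes were higher and 24.3% lower, 6 of 26 further folding factors rose and 9 fell, 7 of 25 further ERAD factors rose and 2 fell, and 4 of 19 further translocation factors rose and 7 fell. Of 16 further sensors and factors, the PERK branch included, 8 rose and 2 fell. Trib3, a pseudokinase gene induced by that branch, averaged 107 ± 11.2 CPM under IL-6 and 42.7 ± 4.42 CPM in medium (SD, n = 4), a rise of 2.50-fold (adjusted p = 3.16e-15). Ppp1r15a, which encodes the phosphatase subunit GADD34 that restores translation, averaged 38.3 ± 2.51 CPM under IL-6 and 14.3 ± 2.44 CPM in medium (adjusted p = 5.1e-10). Mesd, a chaperone of LDL receptor family proteins, averaged 192 ± 5.96 CPM under IL-6 and 276 ± 17.7 CPM in medium (adjusted p = 1.58e-11), and Tmx1, a membrane thioredoxin-like gene, 256 ± 9.43 CPM under IL-6 and 346 ± 16.2 CPM in medium (adjusted p = 9.01e-11). The gene of the factor CHOP (Ddit3) was not analysed here.

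In ChimP3V3 cells, where 16.2% of all genes were higher and 11.4% lower, 7 of 26 further folding factors rose and 1 fell, 7 of 25 further ERAD factors rose and 2 fell, 5 of 16 further sensors and factors rose and 1 fell, and 3 of 19 further translocation factors rose and 2 fell. Ppp1r15a averaged 54.1 ± 6.69 CPM under IL-6 and 24.9 ± 3.48 CPM in medium (SD, n = 4), a rise of 2.17-fold (adjusted p = 7.83e-09). Srp19, a protein of the signal recognition particle, was 1.18-fold lower under IL-6 (adjusted p = 0.000445). Wfs1, an ER membrane protein gene, was 2.34-fold lower from few counts (26 in all under IL-6, 69 in medium, adjusted p = 0.00422). In gp130:IL-6R cells Wfs1 went the other way, averaging 11.8 CPM under IL-6 and 3.41 CPM in medium. Counts were few there too (70 in all under IL-6, 21 in medium).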

How the data were processed

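The authors deposited 1 table with raw counts per gene for 16 libraries, made with CLC Genomics Workbench 23.0.4 on GRCm39 with Ensembl release 107 gene models, per the overview sheet among the deposited files. Read filters and the strand setting are not given in the sources used here, so counts of overlapping genes are uncertain. Per the labels' protocols, 100 ng of RNA entered a QuantSeq forward kit (3' ends, no molecular identifiers named) and single reads of 100 bases were made. The other 48 per-library columns (RPKM, TPM, CPM) were not used.

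Genes were kept with filterByExpr (minimum count 10, minimum total 15), which left 9540 genes. TMM factors and a quasi-likelihood model with 1 mean per group over 16 libraries (12 residual degrees of freedom, edgeR 4.0.16, R 4.3.3) gave log2 changes and p-values. The p-values were adjusted by Benjamini-Hochberg over all 9540 genes and called under 0.05. SE was computed as the absolute log2 change divided by the square root of the F value of the test. All p-values of genes come from this model unless another tool is named. Intervals are 95%, from this SE and a t value with 12 degrees of freedom, and can differ slightly from the p-value near a threshold. Like the limit of 3 counts, they cover the model or counting error only. CPM values use TMM factors. Python 3.11.15, pandas 2.3.3 and matplotlib 3.10.9 were used for motifs and plots.

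The genes and lists were chosen with earlier results of these data known. The text gives per-library values for Hspa5, Dnajb9, Herpud1, Xbp1, Ern1 and Atf6 and for the called genes with the smallest p-values (5 per direction in each response, 4 in the difference, 3 between lines in medium). Of the other genes of the machinery it names the 2 smallest p-values per direction in each response, apart from a result that is not reported here. Per-library values of Ppib, Creld2 and Ssr1 follow from this rule, and further values were picked to show a role.

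Same-numbered libraries of different groups did not deviate together (correlations from -0.0411 to 0.0492). Other settings were size factors by RLE or upper quartile, every gene kept, genes with 4 libraries at a CPM of 5 or more, a fit on just the compared groups, and the replicate number as a block. DESeq2 1.42.0 and limma 3.58.1 (on CPM plus 1, log2) were run as other tools. A stricter adjusted p (0.01), a minimum fold (1.5), counts thinned to equal totals and omission of each library in turn completed them. Merging the most alike pair of libraries in each group was added after the data were seen.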

Additional observations from a re-analysis of the deposited data

Results flagged for a closer look

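Single libraries stood apart from the other 3 of their group in 8 of 148 combinations of gene and group, by the ratio of the gap to the range, and chance gives about 1 in 20. In ChimP3V3 cells under IL-6, Hspa13 (677 CPM against 658 to 661) and Manf (122 against 117 to 118) were high in replicate 1 and P4hb (337 against 308 to 311) in replicate 4. In ChimP3V3 cells in medium, Atf6 was high in replicate 2 (62.6 CPM against 51.5 to 52.6). In gp130:IL-6R cells under IL-6, Edem2 was high in replicate 1 (84.8 CPM against 68.3 to 69.2). In gp130:IL-6R cells in medium, replicate 3 was high for Canx (1017 CPM against 893 to 905), Sil1 (44.1 against 31.1 to 33.0) and Sec61a1 (290 against 255 to 260).

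The responses of the lines differed by test in 17 genes, given as log2 values of ChimP3V3 minus gp130:IL-6R. The negative ones were Ppib (-0.94), Herpud1 (-0.87), Dnajb9 (-0.86), Syvn1 (-0.67), Edem3 (-0.60), Edem1 (-0.60), Xbp1 (-0.51), Sdf2l1 (-0.51), P4hb (-0.49), Pdia3 (-0.35), Ero1a (-0.34), Hspa5 (-0.32), Pdia6 (-0.29), Hspa13 (-0.23) and Derl1 (-0.20), and the positive ones were Calr (0.20) and Ssr1 (0.18).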

How the results depend on the processing

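A fold of at least 1.5 moved nearly every count: 1 higher and 0 lower in the ChimP3V3 response, 6 and 0 in the gp130:IL-6R response, 0 and 6 in the difference, 2 and 13 between lines in medium, and 1 and 15 under IL-6. In the ChimP3V3 response, 4 rose with DESeq2 and 2 fell at an adjusted p under 0.01. In the difference, 1 gene was called positive (against 2) without the filter, with a CPM of at least 5, DESeq2, an adjusted p under 0.01 or thinned counts. With thinned counts the median of luminal minus ERAD genes in gp130:IL-6R cells was -0.17 (against -0.21). Leaving out single libraries gave 4 to 8 higher and 3 to 5 lower in the ChimP3V3 response, 19 to 22 and 4 to 6 in the gp130:IL-6R response, 1 to 3 and 14 to 17 in the difference, 6 to 8 and 24 to 26 between lines in medium, and 2 to 3 and 29 to 30 under IL-6. The same omissions gave luminal minus ERAD medians of -0.18 to -0.15 in ChimP3V3 cells and -0.24 to -0.17 in gp130:IL-6R cells, the last without medium replicate 3. Over 58 results of single genes, none of 1614 alternative values reversed a call, 78 lost one and 6 gained one. These results cover Hspa5, Dnajb9, Herpud1, Xbp1, Ern1 and Atf6 and called genes picked for the smallest p-values. Most alternatives left out a single library. Few losses and no reversals were therefore likely from these choices. Same-numbered libraries share only a number: 1 of 16 correlated best with its own number, and with the replicate block the counts of genes called were the same as without it in all 5 comparisons (21 higher and 5 lower in the gp130:IL-6R response, 7 and 4 in the ChimP3V3 response, 2 and 15 in the difference, 7 and 25 between lines in medium, 2 and 30 under IL-6). The cause of these moves was not tested. Changes of low genes are limited by depth.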
